A study of Mus musculus with 8 samples.

Results

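The genes described here are 40 genes of the endoplasmic reticulum (ER) stress response and the integrated stress response, chosen by name among the 19493 endogenous genes of a mouse count table. They comprise 17 genes of ER protein folding and degradation, 6 genes for the stress sensors and the transcription factors they act through, and 17 target genes of Atf4. Counts of these genes were taken from RNAseq of mouse embryonic fibroblasts (MEFs), the mixed fibroblasts that grow out of a minced embryo. There were 8 libraries, 4 wild-type (WT) and 4 Dp1Tyb, all from embryos at E14.5. The labels give the strain as C57BL/6J.129P2 for both genotypes, and according to the methods the mice had been backcrossed to C57BL/6JNimr. The Dp1Tyb cells carried Dp(16Lipi-Zbtb21)1TybEmcf, a duplication of the stretch of chromosome 16 from Lipi to Zbtb21 (GRCm38 chr16:75540514-97962622), which is related in gene content to human chromosome 21 and is used to model Down syndrome. Hspa13 was the only one of the 40 genes inside the duplication, and the other 39 were outside it. According to the methods, every culture was passaged before it was detached with trypsin for RNA extraction, so all libraries share that handling. The same amount of ERCC spike-in RNA, a set of synthetic transcripts, was added to a fixed number of cells of each culture. The question put to these libraries was how the duplication affects RNA levels, and here it is asked of the stress response genes.

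Proteins that enter the secretory pathway fold in the ER, helped by chaperones, by enzymes that form disulphide bonds and by a degradation route for those that fail to fold. When unfolded protein builds up, the ER membrane sensors Atf6, Ern1 (IRE1) and Eif2ak3 (PERK) switch on a programme that raises chaperone transcripts. PERK and the amino acid sensor Eif2ak4 (GCN2) also slow protein synthesis by phosphorylating eIF2, which favours translation of Atf4, and Atf4 then raises genes of amino acid supply and of stress adaptation. Fibroblasts secrete large amounts of collagen and fibronectin and so keep a high load on this machinery. Since Ern1 acts by splicing the Xbp1 transcript and Atf4 is controlled largely in translation, gene-level read counts report neither activity directly.

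Promoters of these genes carry short elements that the factors bind. RefSeq windows of GRCm38.p6, from 250 bases before to 50 after the start, matched 35 of the 40 genes by symbol. Atf6, Slc7a5, Manf, Hspa13 and Hyou1 had no entry. The windows were searched on both strands for 4 motifs. These were the ER stress element (CCAAT, then 9 bases, then CCACG), ER stress element II (ATTGG, 1 base, CCACG), the unfolded protein response element core (TGACGTG) and the C/EBP-Atf response element (TGATGNAA). None of the matches in these genes overlapped another. The following sequences show the ER stress element in a set of genes that carry the same element but differ in how much they varied between cultures. Each reads 5′ to 3′ on the strand of the gene, and capitals mark the motif letters.
Hspa5: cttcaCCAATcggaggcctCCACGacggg
Pdia6: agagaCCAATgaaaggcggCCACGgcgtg
Hsp90b1: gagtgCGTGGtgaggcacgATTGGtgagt
Canx: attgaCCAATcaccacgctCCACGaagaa
Syvn1: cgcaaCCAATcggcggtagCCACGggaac
The Hspa5 stretch is chr2:34772020-34772048 on the plus strand, and its motif begins 65 bases before the start. That of Pdia6 is chr12:17266486-17266514 on the plus strand. The Hsp90b1 stretch, chr10:86705528-86705556 on the minus strand, holds the motif in reverse orientation, and a further match lies upstream of it. Canx has its match at chr11:50325795-50325823 on the minus strand. Syvn1 has its own at chr19:6046527-6046555 on the plus strand. The ER stress element was present in 8 of the 14 folding and degradation genes with a window (57.1%), namely these 5 and Calr, Dnajc3 and Creld2, against 37 of 27025 genes with a window (0.137%). Element II was found in Herpud1 and Dnajb11, 2 of 14 (14.3%) against 0.0444% of all genes. The unfolded protein response core was found in Hspa5 alone among these genes, against 2.22% of all genes.

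The C/EBP-Atf response element, bound by Atf4 with a C/EBP partner, is shown for 3 target genes whose values are given in every library below and for the cystine transporter Slc7a11, with 2 matches, of which the one farther from the start is printed.
Asns: ccacaTGATGaAActtcc
Nupr1: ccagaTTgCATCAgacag
Chac1: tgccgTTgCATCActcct
Slc7a11: gtggcTGATGcAAacctg
The capitals again mark the motif letters, which read in reverse orientation in Nupr1 and Chac1. The stretches lie at chr6:7693220-7693237 (minus strand), chr7:126625568-126625585 (minus), chr2:119351044-119351061 (plus) and chr3:50443667-50443684 (minus). The element was present in 6 of the 16 Atf4 target genes with a window (37.5%), the other two being Trib3 and Vldlr, in Herpud1 among the folding genes, and in 4.51% of all genes. A match is a run of letters and not a measured site of binding.

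Total counts per library ranged from 17698900 to 26471758, and every one of the 40 genes passed the filter on low counts, with raw counts between 91 and 38035. Levels were compared in 2 ways. Relative scaling (TMM) sets a gene against the other endogenous genes of its library, and spike-in scaling sets it against the synthetic RNA added to each culture. The median log2 fold change (Dp1Tyb over WT) of all 16470 genes tested was 0.01 under relative and 0.11 under spike-in scaling, so spike-in values are shifted upwards by about that amount, and 70.4% of all genes were above 0 under spike-in scaling against 51.2% under relative scaling. Fibroblast identity was checked with 11 markers, whose summed level was 23938 to 34493 CPM (counts scaled to library size) in WT and 28279 to 33903 in Dp1Tyb libraries, led by Fn1. Those of 6 macrophage markers summed to 258 to 356 CPM in WT and 144 to 293 in Dp1Tyb libraries, and their part in the results was not tested. Sums for endothelial, myogenic, epithelial, neural, chondrocyte and plasma cell markers were at most 143 CPM. Within WT the myogenic, epithelial, neural and plasma cell sums were highest in WT 2, and of all libraries they were lowest in Dp1Tyb 1. Myogenic sums were 24.5 CPM in WT 2 and 30.6 in Dp1Tyb 2, against 8.5 in WT 1 and 3.3 in Dp1Tyb 1. Only 2 of the 5 myogenic markers were among the counted genes, led by Des, while Myod1, Myf5 and Pax7 were absent. The plasma cell sum likewise held 2 of 4 markers, led by Sdc1, without Jchain and Mzb1. Endothelial sums were highest in Dp1Tyb 1 and chondrocyte sums lowest in Dp1Tyb 2. The part of these markers in the results was not tested. In bulk libraries fewer cells of a type and less RNA per cell cannot be told apart.

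No stress response gene was called different between Dp1Tyb and WT MEFs. In edgeR's quasi-likelihood test with Benjamini-Hochberg adjustment over all genes, 0 of 40 had an adjusted p under 0.05 under either scaling, where 0.0121% of all genes were called under spike-in and 0.0182% under relative scaling. DESeq2 and limma-voom also called 0 of the 40. At an unadjusted p under 0.05 stood 2 of 40 (5.0%) under each scaling, Hspa13 and Nupr1, both higher in Dp1Tyb. The background at that threshold, in either direction, was 1.17% of all genes under spike-in and 4.27% under relative scaling, so the relative share was near that background. Genes at that threshold and higher in Dp1Tyb made up 0.85% of all genes under spike-in and 1.74% under relative scaling, and both shares were above these. Hspa13 lies inside the duplication, however, so only Nupr1 of the 39 genes outside it stood at that level. With single libraries left out the relative number ranged from 0 (without Dp1Tyb 2) to 6 (without WT 2), where the shares of all genes were 3.15% and 5.52%. The spike-in number ranged from 0 (without WT 3, Dp1Tyb 3 or Dp1Tyb 4) to 5 (without WT 2), where between 0.718% and 1.30% of all genes were at that level. The 4 Dp1Tyb libraries did not overlap the 4 WT libraries for 2 genes under spike-in scaling, against 0.425% of all genes, and for 0 genes under relative scaling, against 3.16%. These 2 were again Hspa13 and Nupr1, of which only Nupr1 lies outside the duplication. The 95% interval of the log2 fold change covered 0 for 38 of the 40 genes under either scaling. Under relative scaling it lay wholly inside a 2-fold change in either direction for 28 of them, including all 6 sensor and factor genes and all 17 folding and degradation genes except Hspa13. For the remaining 12 a 2-fold change was not outside the interval.

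**Figure D1:**
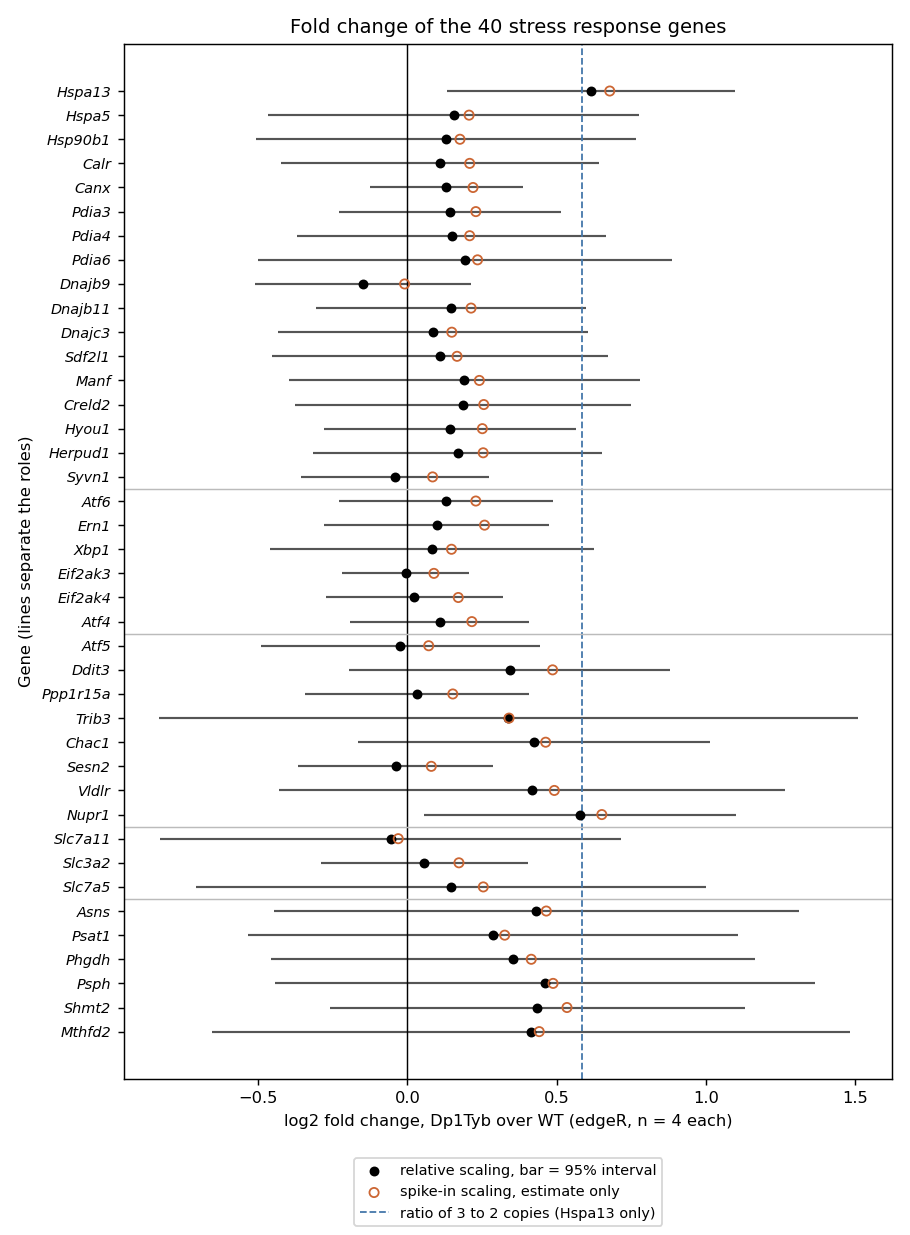
Log2 fold change (Dp1Tyb over WT, n = 4 each, x axis) of each of the 40 genes, ordered by role. Black points with bars give the relative scaling estimate and its 95% interval and open points the spike-in estimate. Only the intervals of Hspa13 and Nupr1 stay clear of 0, and the dashed line marks the ratio of 3 to 2 copies, which applies to Hspa13 alone.

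Hspa13 (ENSMUSG00000032932, GRCm38 chr16:75745431-75767104, minus strand) encodes an Hsp70-like ATPase of the microsomal compartment and is present in 3 copies in Dp1Tyb cells. Its relative normalised read counts were 1630.1, 2379.9, 1834 and 1579 in WT 1 to 4 and 1889, 3959.7, 2904 and 2624 in Dp1Tyb 1 to 4. Dp1Tyb 2, 3 and 4 were above every WT library, while Dp1Tyb 1 was below WT 2, so the groups overlapped by this 1 library. The means were 1856 ± 366 and 2844 ± 858 (SD, n = 4), and the log2 fold change was 0.62 (SE 0.22, 95% interval 0.13 to 1.10, adjusted p = 0.999 by edgeR). Spike-in normalised counts were 1934, 2100.3, 1308 and 1846 in WT and 2275, 2723, 3056 and 3448 in Dp1Tyb MEFs. On this scale the groups separated, every Dp1Tyb value exceeding the highest WT value, with a log2 fold change of 0.68 (SE 0.32, adjusted p = 1.00 by edgeR). The exact permutation test over the 70 assignments of libraries gave p = 0.0571 for the relative and p = 0.0286, the smallest possible, for the spike-in values (two-sided). The log2 of the copy ratio, 0.58, was inside both intervals.

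The spread of Hspa13 between cultures was smaller when it was set against other folding genes of the same culture. On the log2 scale its SD was 0.27 in WT and 0.44 in Dp1Tyb MEFs as a relative count, and 0.15 and 0.18 as the following ratio. Set against the geometric mean of the other 16 folding and degradation genes, Hspa13 stood at 49.0%, 51.8%, 50.6% and 41.0% in WT 1 to 4. In Dp1Tyb 1 to 4 the ratio was 72.2%, 78.8%, 62.0% and 60.4%. No Dp1Tyb library overlapped a WT library, including Dp1Tyb 1, which had the lowest Hspa13 count of its genotype. The log2 difference of this ratio was 0.50, or 1.42-fold. Against Hspa5 alone, the ratio was 8.25% to 10.5% in WT and 11.4% to 16.8% in Dp1Tyb MEFs, a log2 difference of 0.50 (1.41-fold). Scaling cancels from both ratios, which were picked once the values were known and are given as a description with no test.

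**Figure D2:**
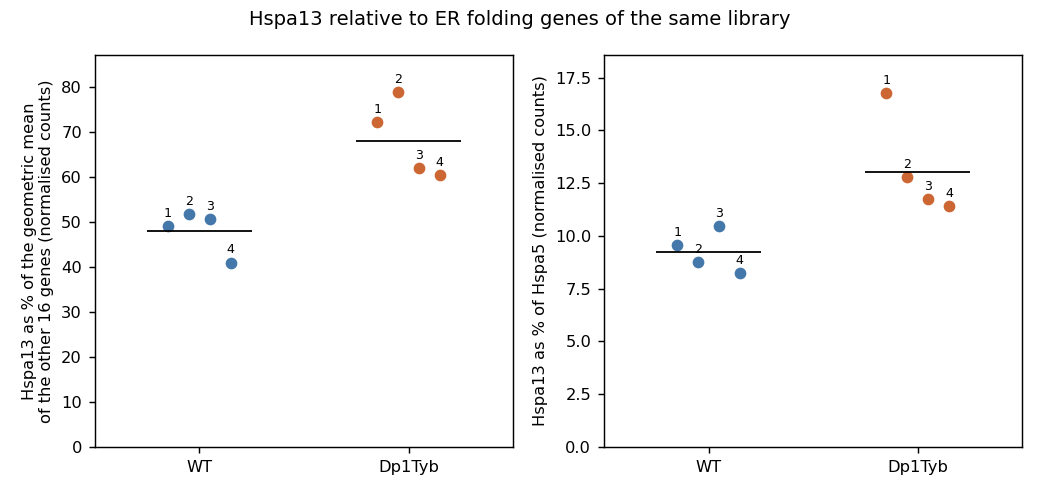
Hspa13 as a percentage of the geometric mean of the other 16 folding and degradation genes (left) and of Hspa5 (right) in each library, from relative normalised counts, with numbers giving the replicate and lines the geometric mean of each genotype. In both panels the 4 Dp1Tyb libraries lie above the 4 WT libraries.

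The other 16 folding and degradation genes each had an interval that covered 0, which for Pdia6 ran from -0.50 to 0.89 under relative scaling. Their median log2 fold change was 0.14 under relative and 0.21 under spike-in scaling, beside 0.01 and 0.11 over all genes tested. Under relative scaling 14 of the 16 were above 0 and 2 below, with estimates from -0.15 to 0.19. They include the most abundant transcripts of the whole set. Per length, Calr reached a mean of 509.8 RPKM over the 8 libraries, followed by Pdia3 with 362, Canx with 301, Hspa5 with 242 and Hsp90b1 with 231 RPKM.

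Hspa5, the Hsp70 chaperone of the ER known as BiP, had relative normalised counts of 17003, 27121, 17524 and 19154 in WT and 11253, 30974, 24763 and 23031 in Dp1Tyb MEFs. The lowest and the highest of the 8 libraries were both Dp1Tyb, so the groups overlapped fully, and the log2 fold change was 0.16 (SE 0.28, interval -0.47 to 0.78). Hsp90b1, the Hsp90 chaperone of the ER, followed the same order of libraries within each genotype. Its counts were 14921, 25065, 16346 and 18241 in WT and 10062, 28328, 22847 and 20265 in Dp1Tyb MEFs. Again the lowest and highest were Dp1Tyb 1 and Dp1Tyb 2, and the log2 fold change was 0.13 (SE 0.29). The signs of both estimates turned without Dp1Tyb 2, to -0.04 and -0.07 under relative scaling.

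Canx, a membrane-bound lectin chaperone of glycoproteins, was far steadier. Its counts were 25576, 29229, 28343 and 29799 in WT and 28049.7, 35029, 30483 and 30103 in Dp1Tyb MEFs, so that Dp1Tyb 2, 3 and 4 exceeded the whole WT group. The highest was 1.37-fold the lowest, the least of the 17 folding and degradation genes, and the log2 fold change was 0.13 (SE 0.12, interval -0.13 to 0.39). Pdia3, a disulphide isomerase that works with the lectin chaperones, had 18432, 25945, 21827 and 24062 in WT and 18327, 29116, 27039 and 25240.4 in Dp1Tyb MEFs. Dp1Tyb 1 and WT 1 were the lowest and nearly level, and the log2 fold change was 0.14 (SE 0.17). Pdia3 overlaps Catsper2 on the opposite strand.

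Dnajb9, a J-domain partner of BiP and a well-known transcript of the Xbp1 branch, went another way. Its counts were 931, 984, 1410.4 and 1443 in WT and 1006, 1005, 1057 and 1235 in Dp1Tyb MEFs. The Dp1Tyb libraries lay inside the WT range, and the log2 fold change was -0.15 (SE 0.16) under relative and -0.01 under spike-in scaling. The remaining 11 genes were Calr (lectin chaperone), Pdia4 and Pdia6 (disulphide isomerases), Dnajb11 and Dnajc3 (J-domain partners of BiP), Sdf2l1, Manf and Creld2 (ER stress-induced lumenal proteins), Hyou1 (nucleotide exchange factor of BiP), and Herpud1 and Syvn1 (ER-associated degradation). Their relative log2 fold changes ran from -0.04 for Syvn1, the ubiquitin ligase of this route, to 0.19 for Pdia6, each with an interval that covered 0. With single libraries left out Pdia6 went from -0.04 (without Dp1Tyb 2) to 0.43 (without WT 2), and Manf, Dnajc3, Sdf2l1 and Syvn1 also changed sign.

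The sensors and factors had the smallest median SD within a genotype of the 3 groups, 0.23 on the log2 scale. Their median log2 fold change was 0.09 under relative and 0.19 under spike-in scaling, and none of the 6 reached an unadjusted p under 0.05. The relative median was 0.01 without Dp1Tyb 1, and the spike-in median was 0.05 without Dp1Tyb 4 and 0.35 without Dp1Tyb 2. Eif2ak3, the PERK kinase, had a relative log2 fold change of -0.01 (interval -0.22 to 0.21) and a highest library only 1.22-fold its lowest, the smallest span of all 40 genes. Eif2ak4, the GCN2 kinase, had 0.02 (interval -0.27 to 0.32). Both changed sign with single libraries left out, Eif2ak3 between -0.04 and 0.06 and Eif2ak4 between -0.05 and 0.10 under relative scaling.

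Xbp1, the factor that Ern1 activates, had counts of 1468, 2230.1, 1524 and 1475 in WT and 1002, 2384, 1892 and 1818 in Dp1Tyb MEFs. Its libraries were ordered much like those of Hspa5, with WT 2 far above the other WT libraries and Dp1Tyb 1 lowest of all. The log2 fold change was 0.08 (SE 0.24, interval -0.46 to 0.62), and it was -0.09 without Dp1Tyb 2. Atf6, the sensor that becomes a factor once cleaved, had 1455, 2199.9, 2029 and 2027 in WT and 1613, 2464, 2217 and 2136 in Dp1Tyb MEFs. The groups overlapped again, with Dp1Tyb 1 below WT 2, 3 and 4, and a log2 fold change of 0.13 (SE 0.16).

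Ern1 and Atf4 were instead highest in Dp1Tyb 1. Ern1 counts were 672, 707, 876 and 951 in WT and 1029, 653, 794 and 956 in Dp1Tyb MEFs. Those of Atf4 were 3459, 4264, 3797 and 3437 in WT and 4762, 4403, 3645 and 3311 in Dp1Tyb MEFs. For each of them the highest and the lowest library were both Dp1Tyb and the groups overlapped. The log2 fold changes were 0.10 (SE 0.17) for Ern1 and 0.11 (SE 0.13, interval -0.19 to 0.41) for Atf4. Without Dp1Tyb 1 the estimate for Atf4 was 0.02, and under spike-in scaling it went from 0.22 to 0.05.

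With all libraries the Atf4 target genes had the highest median of the 3 groups and the largest spread. Their median log2 fold change was 0.34 under relative and 0.42 under spike-in scaling, with 14 of 17 above 0 under relative scaling. Only Nupr1 had an unadjusted p under 0.05. Among all 40 genes the median SD within a genotype was 0.41 on the log2 scale, beside 0.21 for the 10971 tested genes averaging 100 counts or more, and 35 of the 40 were above the latter value. For the Atf4 targets the median SD was 0.62. Without WT 2 the median log2 fold change of the targets rose to 0.67 under relative scaling, and without Dp1Tyb 2 it was 0.04, below the 0.05 of the sensors and factors. Under spike-in scaling it was 0.65 without WT 2 and 0.25 without WT 3, and without Dp1Tyb 2 it was 0.345, beside 0.349 for the sensors and factors.

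Nupr1, a small nuclear protein induced by many stresses, had relative normalised counts of 627, 813, 639 and 396 in WT and 847, 1274, 873 and 703 in Dp1Tyb MEFs. Of the Dp1Tyb libraries 3 were above every WT library and Dp1Tyb 4 was below WT 2. The log2 fold change was 0.58 (SE 0.23, interval 0.06 to 1.10, adjusted p = 0.999 by edgeR). Spike-in normalised counts were 744, 717, 456 and 463 in WT and 1019.8, 876, 919 and 924 in Dp1Tyb MEFs. On that scale the groups did not overlap, and the log2 fold change was 0.65 (SE 0.32, adjusted p = 1.00 by edgeR).

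Ddit3 (CHOP), the factor most used as a mark of the PERK and Atf4 branch, stood apart in 1 culture. Its counts were 770.2, 472, 735 and 503 in WT and 1178, 667, 616 and 682 in Dp1Tyb MEFs. Dp1Tyb 1, where Atf4 was also highest, was far above the other 7 libraries, which overlapped. The log2 fold change was 0.34 (SE 0.24) with all libraries and 0.08 without Dp1Tyb 1 under relative scaling. Ddit3 overlaps Mars, which encodes methionyl-tRNA synthetase, on the opposite strand.

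Trib3, a pseudokinase that restrains Atf4, had the widest span, 5.98-fold from lowest to highest. It was counted at 323, 705, 204 and 126 in WT and 227, 752, 469.9 and 273 in Dp1Tyb MEFs. WT 2 and Dp1Tyb 2 were alike and high, and the log2 fold change of 0.34 had an SE of 0.52 (interval -0.83 to 1.51). Chac1, an enzyme that degrades glutathione, had few counts, 190.5, 172, 105 and 92.3 in WT and 197, 241, 173 and 142 in Dp1Tyb MEFs. Its Dp1Tyb 1 and 2 values were above every WT library, the others overlapped, and the log2 fold change was 0.43 (SE 0.26, interval -0.16 to 1.02).

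Asns, asparagine synthetase, was counted at 1012, 2796, 1306 and 1194 in WT and 1071, 3579, 2139.9 and 1732 in Dp1Tyb MEFs. WT 2 lay far above the other WT libraries and above all Dp1Tyb libraries but Dp1Tyb 2, and the log2 fold change was 0.43 (SE 0.39, interval -0.45 to 1.31). It was 0.06 without Dp1Tyb 2 and 0.88 without WT 2. Shmt2, the mitochondrial serine hydroxymethyltransferase, had 1007, 2481, 1238 and 1044 in WT and 1255, 2530.1, 2251 and 1776 in Dp1Tyb MEFs. Here WT 2 nearly equalled Dp1Tyb 2, while every Dp1Tyb library exceeded the other 3 WT libraries. On the log2 scale the fold change was 0.44 (SE 0.31, interval -0.26 to 1.13), and it was 0.84 without WT 2 and 0.29 without Dp1Tyb 2. Shmt2 overlaps Ndufa4l2 on the opposite strand.

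The other 11 target genes were given by their relative log2 fold changes. Serine synthesis enzymes had 0.29 (Psat1), 0.35 (Phgdh) and 0.46 (Psph), and Mthfd2 of mitochondrial one-carbon metabolism had 0.41, each with an SE of at least 0.36. Without Dp1Tyb 2 these values were -0.03 for Psat1, 0.09 for Phgdh, 0.09 for Psph and 0.04 for Mthfd2. Without WT 2 they lay between 0.68 (Psat1) and 0.94 (Mthfd2). Transporters had -0.06 (Slc7a11, cystine), 0.06 (Slc3a2, the shared heavy chain) and 0.15 (Slc7a5, large neutral amino acids). Each changed sign with single libraries left out, Slc7a11 between -0.32 (without Dp1Tyb 2) and 0.21 (without WT 2), Slc3a2 between -0.07 (without WT 1) and 0.14 (without WT 4) and Slc7a5 between -0.02 (without WT 4) and 0.65 (without WT 2). Of the others, the lipoprotein receptor Vldlr had 0.42 (SE 0.38), with 0.17 without WT 4 and 0.67 without WT 2. Atf5, the eIF2 phosphatase subunit Ppp1r15a and the stress protein Sesn2 lay between -0.04 and 0.03. Their signs also depended on single libraries, with ranges of -0.18 to 0.18 for Atf5, -0.11 to 0.14 for Ppp1r15a and -0.12 to 0.09 for Sesn2.

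**Figure D3:**
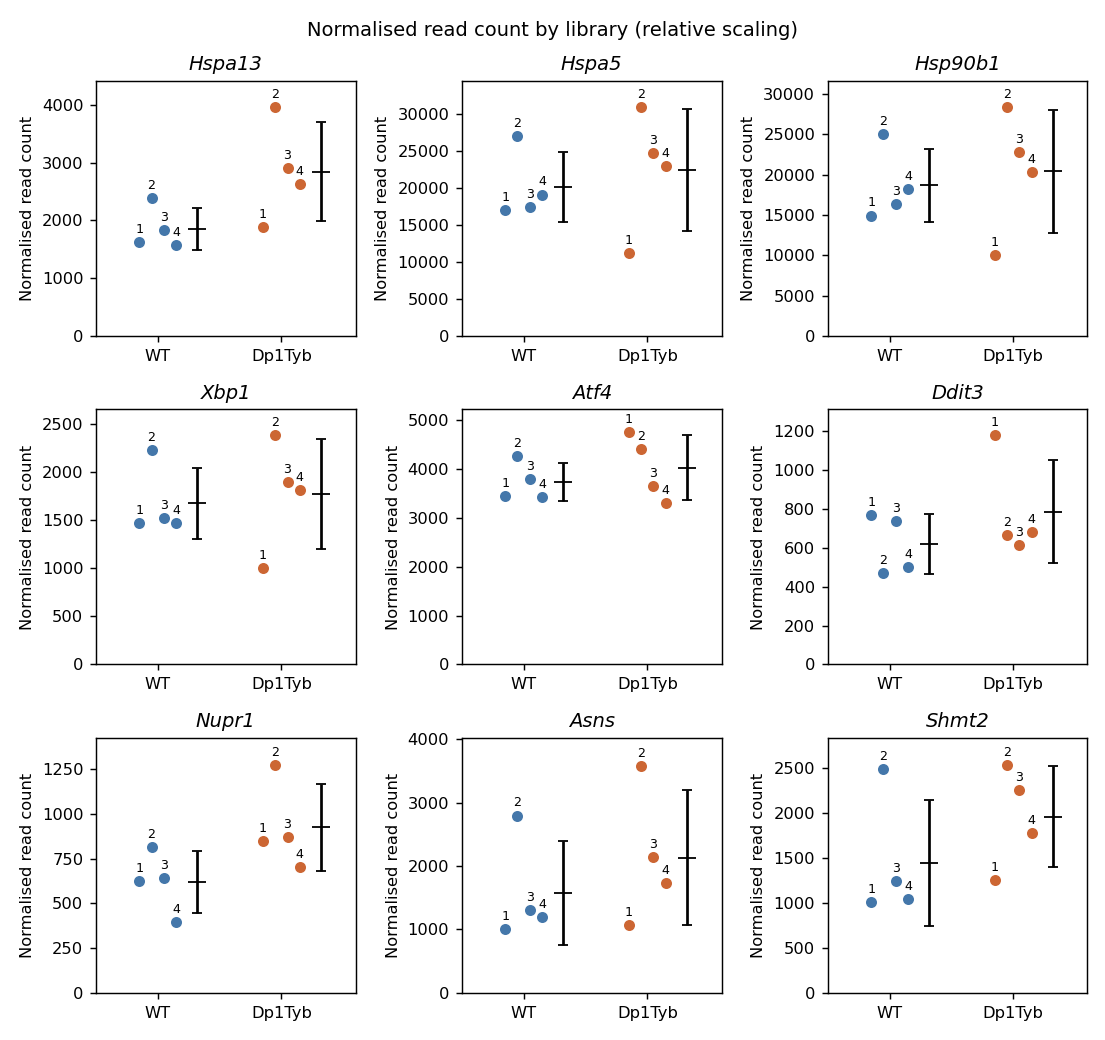
Relative normalised read count (y axis, from 0) of 9 of the named genes in each library. Points are single libraries with their replicate number, and the bar beside each group is the mean ± SD (n = 4). WT 2 and Dp1Tyb 2 are high for Hspa5, Hsp90b1, Xbp1, Asns and Shmt2, and Dp1Tyb 1 is high for Ddit3.

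For 37 of the 40 genes the SD within a genotype exceeded the size of the log2 fold change between genotypes, the exceptions being Hspa13, Canx and Nupr1. Some roles moved alike across cultures and others did not, and no difference between roles was tested. Of the 17 folding and degradation genes, 12 were above their average in WT 2, Dp1Tyb 2 and Dp1Tyb 3 and below it in WT 1 and Dp1Tyb 1, the exceptions being Canx, Dnajb9, Sdf2l1, Herpud1 and Syvn1. Among the 17 genes, 12 were highest of all libraries in Dp1Tyb 2 and 12 were lowest in Dp1Tyb 1. The genes of amino acid and one-carbon synthesis were Asns, Psat1, Phgdh, Psph, Shmt2 and Mthfd2. All 6 were above average in WT 2, Dp1Tyb 2 and Dp1Tyb 3 and below it in WT 1 and Dp1Tyb 1. So were the transporters Slc7a11 and Slc7a5 but not Slc3a2, and from the remaining groups only Atf6, Xbp1 and Trib3. The 6 synthesis genes were highest in Dp1Tyb 2, and within the WT group all 6 were highest in WT 2. Their mean log2 deviation from the average of the 8 libraries was 0.73 in WT 2 and 0.97 in Dp1Tyb 2, against -0.64 in WT 1 and -0.73 in Dp1Tyb 1. The 16 folding and degradation genes without Hspa13 deviated by 0.23 in WT 2 and 0.35 in Dp1Tyb 2, and by -0.24 in WT 1 and -0.59 in Dp1Tyb 1. The 3 transporters had a mean deviation of -0.66 in Dp1Tyb 1, their lowest library. The 8 stress factors and remaining targets were mixed there, with 5 above their average and Trib3, Ppp1r15a and Atf5 below it, and a mean deviation of 0.19. Their lowest library was WT 4 with -0.65. Without Dp1Tyb 1 the median relative log2 fold change of the 17 folding and degradation genes was 0.31, and without Dp1Tyb 2 it was 0.01. Their spike-in median was 0.37 without Dp1Tyb 1 and 0.07 without WT 3 or Dp1Tyb 4.

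**Figure D4:**
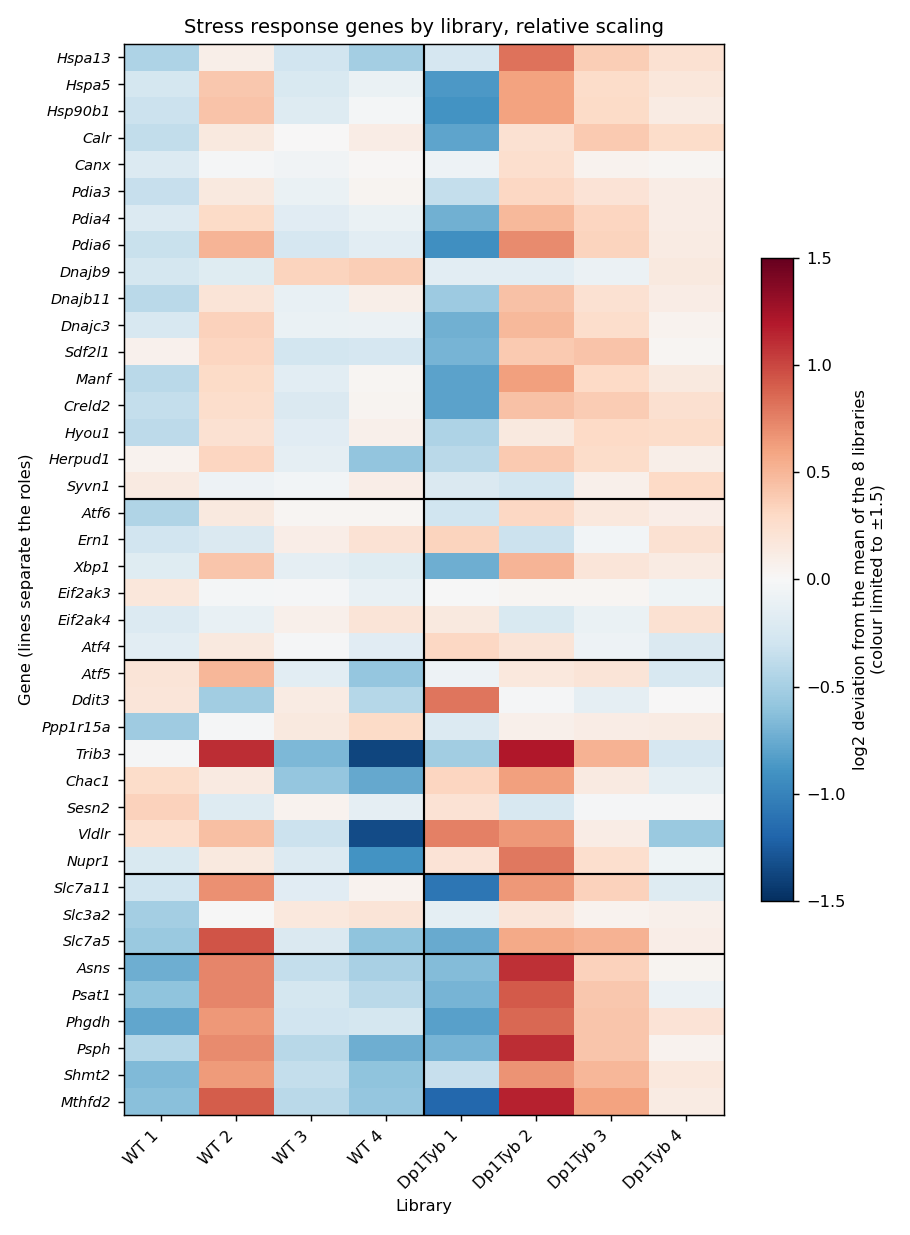
Log2 deviation of each gene (rows, grouped by role) from its mean over the 8 libraries (columns), from relative normalised counts. WT 2 and Dp1Tyb 2 are red for most chaperones and for all 6 synthesis enzymes, and Dp1Tyb 1 is blue for these but red for Ddit3, Atf4 and Vldlr.

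**Figure D5:**
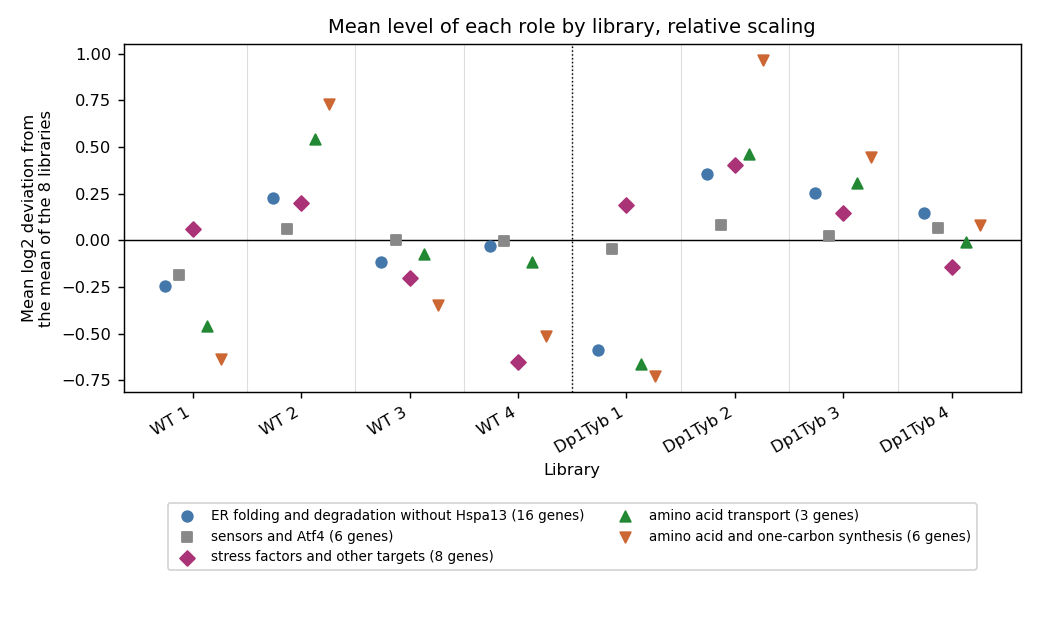
Mean log2 deviation of the genes of each role (y axis) in each library (x axis). The 6 synthesis genes range from -0.73 in Dp1Tyb 1 to 0.97 in Dp1Tyb 2, while the 6 sensor and factor genes stay between -0.19 and 0.08.

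Some transcripts of cell proliferation, picked after their values were seen, ordered the cultures in a similar way, and another did not. Mki67, a marker of cycling cells, had 5691, 14758, 6470.1 and 6141 relative normalised counts in WT and 1595, 11938, 10535 and 6022 in Dp1Tyb MEFs. Top2a, needed to untangle chromosomes in mitosis, had 3862, 8786, 3744 and 3733 in WT and 1267, 8765, 6129.7 and 3859 in Dp1Tyb MEFs. Both were highest in WT 2 and Dp1Tyb 2 within their genotypes and lowest in Dp1Tyb 1. Ccnd1, the cyclin of entry into the cycle, ran another way, with 6382, 4517, 4723 and 4059.7 in WT and 4538, 3297, 3639 and 3263 in Dp1Tyb MEFs. Within each genotype it was highest in WT 1 and Dp1Tyb 1. Cdc45 and Pcna were ordered as Mki67 was in these respects. Of the collagen transcripts looked at, Col1a1 was also highest within WT in WT 2 (175283) and lowest of all in Dp1Tyb 1 (67605), but highest within Dp1Tyb in Dp1Tyb 3 (152384). Col3a1 was highest within WT in WT 1 (72482) and lowest of all in WT 4 (30838). The part of proliferation or of collagen transcripts in the differences between cultures was not tested.

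Further genes of the pathway gave no call. Of 32 further genes for ER folding, protein entry and degradation, all tested, 0 were called, and under relative scaling 2 were at an unadjusted p under 0.05 and higher, with 0 lower. Of 39 tested among 40 further genes of the integrated stress response, 0 were called, 1 was at that level and higher, and 0 were lower. The share over both lists, 3 of 71 and all higher, was near the 4.27% of all genes in either direction and above the 1.74% that were higher. Without WT 2 the numbers at that level were 5 of the 32 and 11 of the 39, beside 5.52% of all genes, and without Dp1Tyb 2 they were 1 and 0, beside 3.15%. Estimates above 0 were found for 24 of the 32 and 34 of the 39 genes under relative scaling, with medians of 0.10 and 0.19, where 51.2% of all genes were above 0 with a median of 0.01. The medians were 0.04 and 0.06 without Dp1Tyb 2 and 0.19 and 0.35 without WT 2. Under spike-in scaling 29 and 37 were above 0, where 70.4% of all genes were. As for the 40 genes, the highest libraries of their genotypes were WT 2, with mean log2 deviations of 0.15 and 0.25 for the lists, and Dp1Tyb 2 with 0.22 and 0.38. Ero1l, the ER oxidase that recharges disulphide isomerases, had 2342, 2728, 2047 and 1806 in WT and 4352, 3560.7, 2923 and 2422 in Dp1Tyb MEFs. Only Dp1Tyb 4 fell within the WT range, and the log2 fold change was 0.57 (SE 0.19, adjusted p = 0.999 by edgeR). Creb3, a membrane-bound factor of the secretory pathway, had a log2 fold change of 0.32 (SE 0.13, adjusted p = 0.999 by edgeR). Ndrg1, a stress- and hypoxia-responsive gene, had 691, 948, 1068 and 1007 in WT and 1203, 1185, 1133 and 1165 in Dp1Tyb MEFs. Under relative scaling the groups of Ndrg1 did not overlap, with a log2 fold change of 0.34 (SE 0.13, adjusted p = 0.999 by edgeR), and 0.22 without WT 1. It was the only one of the 71 genes (1.41%) without overlap, where the share of all genes was 3.16%, and under spike-in scaling 0 of the 71 were without overlap.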

How the data were processed

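Poly(A) RNA of 8 MEF cultures (4 WT, 4 Dp1Tyb) was sequenced with ERCC spike-ins. The labels do not say which embryos or litters the cultures came from, so p-values measure the spread between these libraries. According to the methods and the submitters' processing notes, the authors trimmed reads with Trim Galore, mapped them to GRCm38 with TopHat2 2.0.12, discarded reads that aligned to several places, counted with HTSeq and tested with DESeq2 1.6.3. The libraries were stranded, and the strand setting of the counting is not given in the sources used here. Gene bodies of 13 of the 40 genes overlap another gene, 11 of them on the opposite strand. The deposited values used are raw read counts per gene. Deposited normalised values and the authors' own fold changes and p-values were not used. The table holds 19493 endogenous genes and 63 spike-ins, and its smallest row sum is 15 counts.

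Members and lists were chosen with earlier results of these data known. Genes were placed with GENCODE M21 (19318 IDs matched). Relative factors were TMM over endogenous genes and spike-in factors were median-of-ratios over spike-ins, each set to a geometric mean of 1. filterByExpr kept 16470 genes. Dp1Tyb was compared with WT by edgeR 4.0.16 (glmQLFTest, R 4.3.3). RPKM used the mean relative count and exon length, and log2 values a pseudocount of 0.5. Single values were compared by exact permutation over 70 assignments. Values in every library are given for Hspa13, for the standard readouts of each branch and for the 4 genes with the smallest p in each group. Alternatives were DESeq2 1.42.0, limma-voom (limma 3.58.1), other factors and filters, a replicate block and each library left out. An adjusted p threshold of 0.01 and means in place of medians were also used. Libraries of 1 genotype were not duplicates (chi-square per degree of freedom of counts at least 12.0).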

Additional observations from a re-analysis of the deposited data

Results flagged for a closer look

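In 9 of the 80 groups of 4 libraries examined, 1 library lay far from the other 3 (Dixon's test at the 95% level, which chance alone passes in about 1 group in 20). WT 2 was the high library in 7 of them, with relative normalised counts of 9168 for Pdia6, 2230.1 for Xbp1, 2796 for Asns, 333 for Psph, 2481 for Shmt2, 1646 for Mthfd2 and 3165 for Slc7a5. In the Dp1Tyb group, Dp1Tyb 1 was high for Ddit3, with 1178, and low for Ppp1r15a, the eIF2 phosphatase subunit, with 1839.7.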

How the results depend on the processing

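Alternatives comprised 16 settings, to which an adjusted p threshold of 0.01 and means in place of medians were added. Over all of these, 609 of 638 recomputed values kept their direction, their side of the threshold and, for counts, a value within 1.5 times. None of the alternatives run called any of the 40 genes, although DESeq2 under relative scaling called 54 of all genes where edgeR called 3. Numbers of genes at an unadjusted p under 0.05 depended on single libraries. With each left out in turn they ranged from 0 to 5 under spike-in and from 0 to 6 under relative scaling, and the number without overlap under relative scaling from 0 to 3. The relative number was 6 without WT 2 and 5 without Dp1Tyb 1 (background 5.52% and 5.53% of all genes). It was 1 without WT 3 or WT 4 (background 2.63% and 3.99%) and 0 without Dp1Tyb 2 (3.15%). The spike-in number was 5 without WT 2 (background 1.13%) and 4 without WT 1 or Dp1Tyb 2 (2.06% and 3.21%). It was 1 without WT 4 (1.45%) and 0 without WT 3, Dp1Tyb 3 or Dp1Tyb 4 (0.718%, 0.80% and 1.30%). The relative number without overlap was 3 (7.5%) without WT 2 or Dp1Tyb 1 and 1 without Dp1Tyb 4, near or below the background of 7.32%, 7.08% and 5.95%. Under spike-in scaling it was 3 without WT 1 or WT 2 (background 2.04% and 0.88%) and 2 without any other library. For the latter the background ranged from 0.67% (without Dp1Tyb 3) to 3.86% (without Dp1Tyb 2). Group medians moved too, under relative scaling from 0.01 (without Dp1Tyb 2) to 0.31 (without Dp1Tyb 1) for the folding genes, 0.0087 (without Dp1Tyb 1) to 0.12 (without WT 2) for the sensors and 0.04 (without Dp1Tyb 2) to 0.67 (without WT 2) for the targets. Under spike-in scaling they ranged from 0.07 (without WT 3 or Dp1Tyb 4) to 0.37 (without Dp1Tyb 1), 0.05 (without Dp1Tyb 4) to 0.35 (without Dp1Tyb 2) and 0.25 (without WT 3) to 0.65 (without WT 2). The cause was not tested.

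Replicate numbers are shared between genotypes, and the deviations of same-numbered libraries had correlations of 0.37, 0.52, 0.03 and 0.33 over genes. Since they did not all exceed 0.1 and no label ties the numbers to a litter or day, they were not treated as pairs, although 6 of 8 libraries correlated best with their own number. The methods describe the WT and Dp1Tyb embryos used for MEFs as littermates, but match no cultures by number. A fit with the replicate block gave 6 genes under spike-in scaling (Hspa13, Nupr1, Shmt2, Vldlr, Asns, Trib3, background 3.03%) and 7 under relative scaling (Chac1 and Phgdh in place of Trib3, background 9.72%) at an unadjusted p under 0.05, and called 0 of the 40.

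With single libraries left out, the log2 fold change of 19 of the 40 genes under relative and 11 under spike-in scaling changed sign at least once. Of the genes given in every library, under relative scaling Hspa5 ranged from -0.038 to 0.38, Hsp90b1 from -0.073 to 0.35, Xbp1 from -0.093 to 0.28, Trib3 from -0.074 to 1.00 (each below 0 without Dp1Tyb 2), and Ern1 from -0.00092 to 0.21 (below 0 without Dp1Tyb 1). Under spike-in scaling Dnajb9 ranged from -0.21 to 0.23 (above 0 without WT 4, Dp1Tyb 2 or Dp1Tyb 3) and Xbp1 from -0.0088 to 0.31 (below 0 without WT 3 or Dp1Tyb 4). The other 14 under relative scaling were Pdia6, Dnajc3, Sdf2l1, Manf, Syvn1, Eif2ak3, Eif2ak4, Atf5, Ppp1r15a, Sesn2, Psat1 and the 3 transporters. Without a change of sign, relative estimates ranged from 0.02 to 0.24 for Atf6, 0.07 to 0.18 for Canx, 0.06 to 0.27 for Pdia3, -0.25 to -0.04 for Dnajb9, 0.28 to 0.61 for Chac1, 0.38 to 0.75 for Nupr1 and 0.41 to 0.77 for Hspa13. Hspa13, with a log2 difference of 0.59 as relative counts (exact permutation p = 0.0571), had 0.50 over the other folding genes and 0.50 over Hspa5, both picked after the values were known. Genes with about 100 counts in a library, such as Chac1, carry more counting error than the chaperones.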
